A study of Mus musculus with 2 samples.

Results

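Axon guidance genes of the semaphorin, plexin, neuropilin, Slit, Robo, netrin, DCC and Unc5 families were read in total RNA of the newborn mouse midbrain. There were 47 such genes, 27 ligands and 20 receptors in 15 classes, among 21474 protein-coding genes and 69691 rows of the gene tables. They were chosen by family membership, through their gene identifiers, and not by their values. The libraries came from 2 mice of strain B6NCrl on postnatal day 0, pup 1 (replicate 1) and pup 3 (replicate 2), with 1 whole midbrain and 1 library each. No treatment or mutation is named in the labels, sex was not collected, and both pups carry the same donor identifier. All samples form 1 group, so conditions are not contrasted, and the smallest p that an exact test on 2 animals allows is 0.5, so no p-value was computed.

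Growing axons read guidance ligands through receptors at the growth cone. Semaphorins act through plexins, which are large transmembrane receptors that regulate small GTPases, and most secreted class 3 semaphorins also need a neuropilin as the ligand-binding co-receptor. Slits are large secreted repellents that bind Robo receptors and keep axons from crossing or recrossing the midline. Netrin-1 attracts axons through DCC and repels them through Unc5 receptors, and in the ventral midbrain these systems are known to steer dopaminergic and commissural axons.

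The libraries held 36934868 expected counts in pup 1 and 40769103 in pup 3. Midbrain markers were present, with 10 of 12 reaching 1 TPM in both pups (TPM is a level per transcript length, scaled to one sum in each library), while 0 of 7 hindbrain Hox genes reached it and 5 of those 7 were at 0 in both. Of the forebrain and hypothalamus markers 7 of 10 also reached 1 TPM in both pups, such as Six3 at 19.9 TPM in pup 1 and 23.9 TPM in pup 3. This list differed between the pups, with a summed level of 62.7 TPM in pup 1 against 111 TPM in pup 3. In it 7 of 10 markers were past a 2-fold difference, all 7 lower in pup 1. Summed endothelial markers were at 195 TPM in pup 1 and 169 TPM in pup 3, and summed astrocyte and radial glia markers at 3002 TPM in pup 1 and 2835 TPM in pup 3. In whole tissue, fewer cells of a type and less RNA per cell cannot be told apart.

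Most of the guidance system was read. A level of 1 TPM in both pups was reached by 42 of 47 genes (89.4%) and by 62.1% of all protein-coding genes, and 10 TPM in both by 22 of the 47 (46.8%) and by 39.2% of protein-coding genes. The median of the 47 was 8.73 TPM in pup 1 and 10.9 TPM in pup 3, and that of all 21474 protein-coding genes was 4.52 TPM in pup 1 and 4.70 TPM in pup 3. The 5 genes short of 1 TPM in at least 1 pup were Sema3g, Plxnb3, Ntn4, Robo3 and Unc5b. Levels ran from 0.30 TPM in pup 1 and 0.38 TPM in pup 3 for Sema3g to 43.4 TPM in pup 1 and 46.6 TPM in pup 3 for Sema6a. Within each class, every pair of genes was set side by side in each pup. A pair was called apart where the log2 ratio of TPM, after adding 0.1 to each value, had the same sign in both pups, a mean over 1 in size and over 3 SD, and where the authors' credibility intervals for the 2 genes lay apart in each pup. These intervals belong to the posterior mean TPM and do not always hold the TPM given here. For Sema4d the TPM was 7.44 in pup 1 and 7.97 in pup 3, below lower bounds of 7.90 and 8.27. By this rule 45 of 69 pairs were apart. Where a pair's call differed when only transcripts annotated as coding were summed, that ratio is given beside it; this reading has no credibility intervals and was added after seeing the data.

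**Figure D1:**
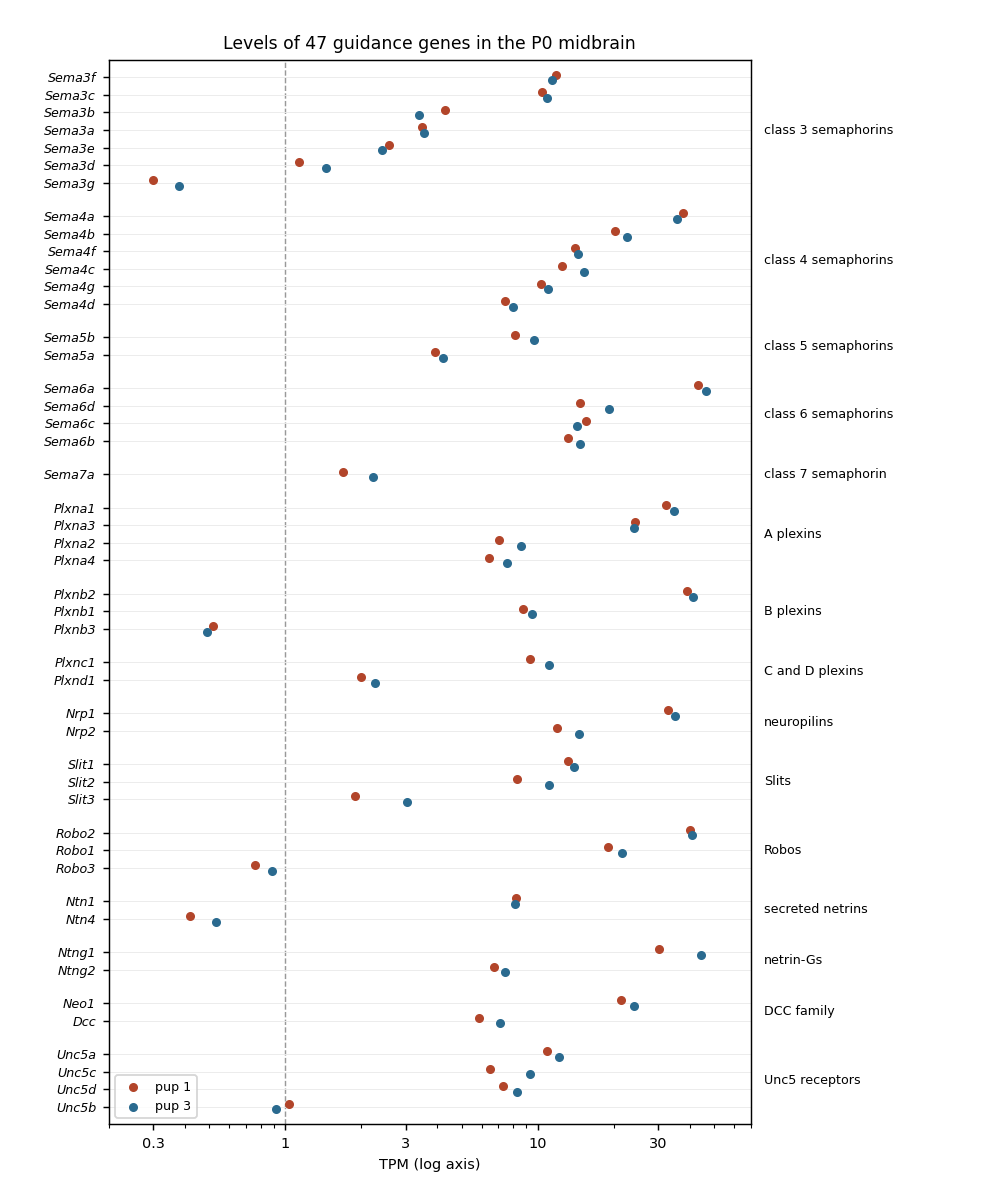
TPM of each of the 47 genes (log axis) in pup 1 and pup 3, 1 point per library, grouped by class and ordered by mean TPM within it; the dashed line marks 1 TPM. Every class but the class 7 semaphorin, the class 5 semaphorins, the C and D plexins and the secreted netrins has a gene that reaches 10 TPM in both pups, and within most classes the genes are spread over a wider range than the pups.

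Among the secreted class 3 semaphorins, Sema3f, a repellent that signals through Nrp2, and Sema3c, which binds both neuropilins, were the most abundant. Sema3f was at 11.9 TPM in pup 1 and 11.4 TPM in pup 3. Sema3c was at 10.4 TPM in pup 1 and 10.9 TPM in pup 3. This pair was not apart, whereas Sema3f was 2.99-fold above the next gene, Sema3b, on the mean log2 ratio (1.58 ± 0.195, SD, n = 2). Sema3b was at 4.30 TPM in pup 1 and 3.38 TPM in pup 3. Sema3a, the growth cone collapsing factor that acts through Nrp1, was at 3.49 TPM in pup 1 and 3.56 TPM in pup 3. Sema3e, which binds Plxnd1 without a neuropilin, was at 2.58 TPM in pup 1 and 2.43 TPM in pup 3. Sema3b, Sema3a and Sema3e were not apart from one another, and Sema3b and Sema3a changed places between the pups. Sema3d was at 1.14 TPM in pup 1 and 1.45 TPM in pup 3. Sema3g, known from vessels, on 31 counts in pup 1 and 43 in pup 3, closed the order and was apart from all 6 others. In total 16 of 21 pairs of the class were apart. On coding transcripts Sema3b over Sema3d had a mean log2 ratio of 0.73 ± 0.152 (SD, n = 2) and was within 2-fold.

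Sema3f also had a coding exon used in part of its transcripts. A 93-base exon (chr9:107691356-107691448, mm10, minus strand) was included in 24.9% of the TPM of coding transcripts with either form in pup 1 and 22.5% in pup 3. It is shown because it adds 31 codons to the main form of 754 amino acids. The exon is in capitals, with 15 flanking bases of the transcript on each side in lower case.
Sema3f exon: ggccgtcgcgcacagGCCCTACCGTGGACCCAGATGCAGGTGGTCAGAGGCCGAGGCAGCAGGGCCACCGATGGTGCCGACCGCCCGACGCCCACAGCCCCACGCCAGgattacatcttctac
Here and below, sequences were read 5′ to 3′ from GENCODE M21 transcripts, on the mm10 build.

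The transmembrane class 4 semaphorins all reached 7 TPM in both pups. Sema4a, known for roles in the immune system and retina, led with 37.6 TPM in pup 1 and 35.8 TPM in pup 3. Sema4b followed with 20.3 TPM in pup 1 and 22.7 TPM in pup 3, and this pair was within 2-fold. The other genes of the class lay close together. Sema4f was at 14.1 TPM in pup 1 and 14.4 TPM in pup 3. Sema4c, a ligand of Plxnb2, was at 12.5 TPM in pup 1 and 15.3 TPM in pup 3, so that it ranked below Sema4f in pup 1 and above it in pup 3. Sema4g was at 10.4 TPM in pup 1 and 10.96 TPM in pup 3, and Sema4d, the ligand of Plxnb1, closed the order with 7.44 TPM in pup 1 and 7.97 TPM in pup 3. Only 6 of 15 pairs of this class were apart, all 6 with Sema4a or Sema4b as the higher gene. On coding transcripts Sema4a was within 2-fold of both Sema4f and Sema4c, at mean log2 ratios of 0.97 ± 0.0208 and 0.95 ± 0.169 (SD, n = 2).

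Of the class 5 semaphorins, which carry thrombospondin repeats outside the cell, Sema5b was at 8.14 TPM in pup 1 and 9.69 TPM in pup 3. Sema5a was at 3.92 TPM in pup 1 and 4.24 TPM in pup 3, and the pair was apart, with a mean log2 ratio of 1.10 ± 0.0977 (SD, n = 2). On coding transcripts the ratio was 0.82 in pup 1 and 0.89 in pup 3, within 2-fold.

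Sema6a, a transmembrane ligand of Plxna2 and Plxna4, was the highest of the 47 genes on TPM over all transcripts, with a mean of 45.0 ± 2.26 (SD, n = 2). Over coding transcripts alone it averaged 33.2 TPM and stood behind Ntng1 at 36.6 TPM, Robo2 at 35.2 TPM, Nrp1 at 33.8 TPM and Plxna1 at 33.5 TPM. This order of means did not hold in each pup. In pup 1 Ntng1 was at 29.99 TPM, below Sema6a at 32.17 TPM, and Plxna1 was level with Sema6a at 32.19 TPM. In pup 3 Ntng1 was at 43.3 TPM and Sema6a at 34.2 TPM. A 327-nt Ntng1 transcript annotated as coding held 2.90 TPM in pup 1 and 11.5 TPM in pup 3. Sema6a was apart from all 3 other class 6 genes, at 2.67-fold to 3.203-fold above them. Sema6d, a ligand of Plxna1, was at 14.8 TPM in pup 1 and 19.1 TPM in pup 3. Sema6c was at 15.6 TPM in pup 1 and 14.4 TPM in pup 3, and Sema6b was at 13.2 TPM in pup 1 and 14.8 TPM in pup 3. None of the 3 pairs among Sema6b, Sema6c and Sema6d was apart. Sema7a, which is held to the membrane by a lipid anchor and binds Plxnc1 and integrins, was lower at 1.69 TPM in pup 1 and 2.22 TPM in pup 3.

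Class 6 genes were read as several protein forms. The main Sema6a transcripts code for 976 and 1031 amino acids and carried 28.3% and 27.6% of its TPM in pup 1, and 28.9% and 25.8% in pup 3. The 2 forms differ by a coding exon of 165 bases, included in 49.4% of the TPM with either form in pup 1 and 47.4% in pup 3. In Sema6d the form of 998 amino acids led with 41.2% of TPM in pup 1 and 42.0% in pup 3, ahead of the form of 1073 amino acids with 24.3% in pup 1 and 17.9% in pup 3. A 57-base Sema6d exon (chr2:124660705-124660761, mm10, plus strand), in capitals, separates the 998 from the 1030 amino acid form together with a 39-base splice site. It was included in 29.8% of the TPM of the compared coding forms in pup 1 and 20.4% in pup 3. Counted over transcripts of any structure and type that hold or skip it, inclusion was 50.5% in pup 1 and 39.1% in pup 3.
Sema6d exon: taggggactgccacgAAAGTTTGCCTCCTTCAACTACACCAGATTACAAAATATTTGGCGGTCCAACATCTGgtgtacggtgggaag

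Plexins are the semaphorin receptors, and 8 of 9 reached 1 TPM in both pups. Plxnb2, a receptor of class 4 semaphorins in neural progenitors, had 39.2 TPM in pup 1 and 41.3 TPM in pup 3, the highest plexin on this scale. Plxna1 had 32.2 TPM in pup 1 and 34.8 TPM in pup 3. Plxna3, an X-linked receptor of class 3 signalling with Nrp2, had 24.3 TPM in pup 1 and 24.1 TPM in pup 3. Plxna1 and Plxna3 were within 2-fold of each other, and both were apart from the remaining A plexins. Plxna2 was at 7.03 TPM in pup 1 and 8.56 TPM in pup 3. Plxna4, a receptor that works with Nrp1, was at 6.43 TPM in pup 1 and 7.57 TPM in pup 3, and it was not apart from Plxna2. In the B class all 3 pairs were apart. Plxnb1 was at 8.73 TPM in pup 1 and 9.47 TPM in pup 3. Plxnb3 was at 0.52 TPM in pup 1 and 0.49 TPM in pup 3, on 64 and 52 counts. The C and D plexins, with 1 gene of each type, were set side by side as 1 class. Plxnc1, the Sema7a receptor, was at 9.37 TPM in pup 1 and 11.1 TPM in pup 3. Plxnd1, the Sema3e receptor known from vessels, was at 1.99 TPM in pup 1 and 2.27 TPM in pup 3, and the pair was apart.

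The order of the plexins depended on which transcripts were counted. For Plxnb2, a short transcript of 841 nt without a coding sequence held 47.7% of TPM in pup 1 and 44.4% in pup 3, on 10.1% of the gene's counts in pup 1 and 9.68% in pup 3. The coding form of 1842 amino acids held 47.2% of TPM in pup 1 and 46.2% in pup 3. Over transcripts annotated as coding alone, Plxnb2 averaged 19.8 TPM against 33.5 TPM for Plxna1. Plxna3 averaged 13.2 TPM in the same reading, against 24.2 TPM over all its transcripts. There Plxna1 was above Plxna3 by 1.34 ± 0.101 on the log2 scale, past 2-fold, while Plxna3 was within 2-fold of Plxna2 (0.96 ± 0.171) and Plxna4 (0.90 ± 0.187).

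Both neuropilins were read. Nrp1, the co-receptor of Sema3a and of VEGF (ENSMUSG00000025810.8), was at 32.7 TPM in pup 1 and 34.9 TPM in pup 3. Nrp2, the co-receptor of Sema3f (ENSMUSG00000025969.11), was at 11.9 TPM in pup 1 and 14.5 TPM in pup 3. Nrp1 was 2.56-fold above Nrp2, and the pair was apart (mean log2 ratio 1.35 ± 0.134, SD, n = 2). The tables hold 1 transcript for Nrp1, so forms of Nrp1 could not be read, and 7 for Nrp2.

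Nrp2 messages ended in 2 different ways. The forms known as Nrp2a and Nrp2b share the ligand-binding part outside the cell and differ in the membrane-spanning and intracellular tail. Both tails are shown from their first coding base for 60 bases in capitals, after 15 bases of the preceding exon in lower case, on the plus strand of chr1:62815333-62815634 for Nrp2a and chr1:62795709-62795986 for Nrp2b (mm10).
Nrp2a tail: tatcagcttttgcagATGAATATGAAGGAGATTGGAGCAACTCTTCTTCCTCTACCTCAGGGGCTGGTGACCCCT
Nrp2b tail: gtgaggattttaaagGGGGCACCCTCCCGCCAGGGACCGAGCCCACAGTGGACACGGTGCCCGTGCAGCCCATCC
The Nrp2a tail took 53.1% of the TPM of transcripts with either tail in pup 1 and 51.0% in pup 3, and the Nrp2b tail took 46.9% in pup 1 and 49.0% in pup 3. Each tail comes with or without a small insert in the stretch before the membrane. A 15-base choice of splice site (chr1:62786302-62786316) could be compared in Nrp2b and a 51-base exon (chr1:62812534-62812584) in Nrp2a, each in capitals below.
Nrp2 15-base insert: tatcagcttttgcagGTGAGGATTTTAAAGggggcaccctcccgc
Nrp2 51-base exon: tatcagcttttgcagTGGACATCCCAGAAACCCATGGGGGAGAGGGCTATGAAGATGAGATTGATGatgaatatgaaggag
The 15-base insert was present in 78.8% of Nrp2b TPM in pup 1 and 79.3% in pup 3. The 51-base exon was present in 9.08% in pup 1 and 16.2% in pup 3 of the Nrp2a forms that could be compared. The leading protein of the b type was thus the 906 amino acid form, with the insert, and that of the a type was the 909 amino acid form, without either one.

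Slit1 and Slit2 were the main Slits. Slit1 was at 13.2 TPM in pup 1 and 13.97 TPM in pup 3. Slit2 was at 8.26 TPM in pup 1 and 11.1 TPM in pup 3. This pair was not apart on all transcripts. On coding transcripts Slit1 was above Slit2 by 1.70 in pup 1 and 1.43 in pup 3 on the log2 scale, past 2-fold, with Slit2 averaging 4.55 TPM. Slit3, on 167 counts in pup 1 and 200 in pup 3, was at 1.89 TPM in pup 1 and 3.03 TPM in pup 3 and was apart from both. Slit1 was read as coding forms of 1458 and 1531 amino acids, with 54.6% and 45.5% of TPM in pup 1, and 52.9% and 44.4% in pup 3. In Slit2 the coding form of 1533 amino acids held 34.3% of TPM in pup 1 and 37.0% in pup 3. A Slit2 transcript annotated as a retained intron held almost as much, 30.4% in pup 1 and 35.6% in pup 3.

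Robo2, on chr16:73891839-74411825 (mm10), had 40.2 TPM in pup 1 and 40.9 TPM in pup 3, second among the 47 genes on the mean of the pups. Robo1 was at 19.1 TPM in pup 1 and 21.7 TPM in pup 3, at a mean log2 ratio of 0.99 ± 0.112 below Robo2, just short of the 2-fold limit. Robo3, which in the hindbrain and spinal cord lets commissural axons cross the midline, was at 0.76 TPM in pup 1 and 0.89 TPM in pup 3, and was apart from both. The levels of Robo1 and Robo2 thus lay well above that of Robo3, by 22.2-fold and 44.1-fold.

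Robo forms could be read only in part. Robo1 has 1 transcript in the tables. In Robo2 the form of 1377 amino acids held 35.8% of TPM in pup 1 and 36.3% in pup 3, ahead of the form of 1508 amino acids with 24.0% in pup 1 and 19.3% in pup 3. Robo3 is known for variants that differ by a retained intron near the end of the message, but its 63 counts in pup 1 and 96 in pup 3 were spread over 6 transcripts. The main coding form took 36.5% of Robo3 TPM in pup 1 and 57.8% in pup 3, one retained-intron transcript took 33.0% in pup 1 and 26.7% in pup 3, and another took 22.9% in pup 1 and 0% in pup 3. The share of the main coding form thus differed widely between the pups at this depth.

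Netrin-1 was the main secreted netrin. Ntn1 was at 8.20 TPM in pup 1 and 8.13 TPM in pup 3, with a mean of 8.17 ± 0.0495 (SD, n = 2). Ntn4, a netrin of basement membranes, was at 0.42 TPM in pup 1 and 0.53 TPM in pup 3, on 26 and 31 counts. The pair was apart. The netrin-Gs are lipid-anchored relatives that bind synaptic adhesion proteins and not DCC. Ntng1 was at 30.2 TPM in pup 1 and 44.3 TPM in pup 3, and Ntng2 at 6.73 TPM in pup 1 and 7.40 TPM in pup 3, and this pair was apart as well. Ntng2 shares 558 exon bases with the gene 6530402F18Rik on the same strand, and its counts were not whole, so reads between these genes were divided by estimate.

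Neogenin was above DCC. Neo1, which binds netrins and the repulsive guidance molecules, was at 21.5 TPM in pup 1 and 24.2 TPM in pup 3. Dcc, the attractive netrin receptor, was at 5.85 TPM in pup 1 and 7.08 TPM in pup 3. Neo1 was 3.50-fold above Dcc, and the pair was apart. Dcc is annotated with a long coding form of 1447 amino acids and a short one of 1427, which differ by 60 bases at a splice site. The long form held 99.0% of Dcc TPM in pup 1 and 98.7% in pup 3, and the short form was listed at 0 in both pups. On the deposited posterior mean TPM the short form held 3.22% in pup 1 and 5.35% in pup 3. The transcript of the long form is 5219 nt in the deposited tables and 10323 nt in the later annotation that gave the splice site.

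Of the Unc5 receptors, which turn netrin responses to repulsion, 3 of 4 were above 6 TPM in both pups. Unc5a was at 10.9 TPM in pup 1 and 12.2 TPM in pup 3. Unc5d was at 7.33 TPM in pup 1 and 8.30 TPM in pup 3. Unc5c was at 6.50 TPM in pup 1 and 9.34 TPM in pup 3. On all transcripts no pair among these 3 was apart, and Unc5c and Unc5d changed places between the pups. On coding transcripts Unc5c was lower, with a mean of 3.23 TPM, against 11.5 TPM for Unc5a and 7.82 TPM for Unc5d. In that reading Unc5a was above Unc5c by 1.80 ± 0.265 on the log2 scale, and Unc5c over Unc5d was -1.25 ± 0.285 (SD, n = 2), both past 2-fold. Unc5b, also known from vessels, was at 1.04 TPM in pup 1 and 0.92 TPM in pup 3 and was apart from the other 3.

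Unc5a was read with and without a 168-base exon (chr13:54997193-54997360, mm10, plus strand) that codes for a thrombospondin repeat of the extracellular part. It is shown in capitals because it separates the 898 from the 842 amino acid form.
Unc5a exon: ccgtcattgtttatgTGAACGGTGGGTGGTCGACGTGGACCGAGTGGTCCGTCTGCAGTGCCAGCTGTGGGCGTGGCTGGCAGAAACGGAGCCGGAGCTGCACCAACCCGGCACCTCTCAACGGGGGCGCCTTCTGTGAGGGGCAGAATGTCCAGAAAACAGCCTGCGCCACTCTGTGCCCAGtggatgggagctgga
The exon was included in 27.3% of the TPM of Unc5a coding transcripts in pup 1 and 29.6% in pup 3, so the form without it led in both.

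Ligand and receptor levels were then set side by side within each pup, as log2 ratios of TPM after adding 0.1, for 10 pairs of known partners. Sema6a was far above Plxna2, by 2.52 ± 0.126 (SD, n = 2). Sema3a was far below Nrp1, by -3.23 ± 0.0468. Sema7a was below Plxnc1 by -2.34 ± 0.0934. Both Slit pairs had the receptor higher, with -1.57 ± 0.0429 for Slit1 over Robo2 and -1.08 ± 0.165 for Slit2 over Robo1. The other 5 pairs lay within 1 of equality. Ntn1 was above Dcc by 0.48 in pup 1 and 0.20 in pup 3, whereas Ntn1 over Unc5c was 0.33 in pup 1 and -0.20 in pup 3. All of these ratios are over all transcripts and were not computed on coding transcripts. On coding transcripts Ntn1 was above Unc5c in both pups, at 8.21 against 3.49 TPM in pup 1 and 8.13 against 2.97 TPM in pup 3. Slit2 was further below Robo1 there, at 3.97 against 19.1 TPM in pup 1 and 5.13 against 21.7 TPM in pup 3. These are ratios of RNA in whole tissue and do not say whether the partners are in the same cells.

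**Figure D2:**
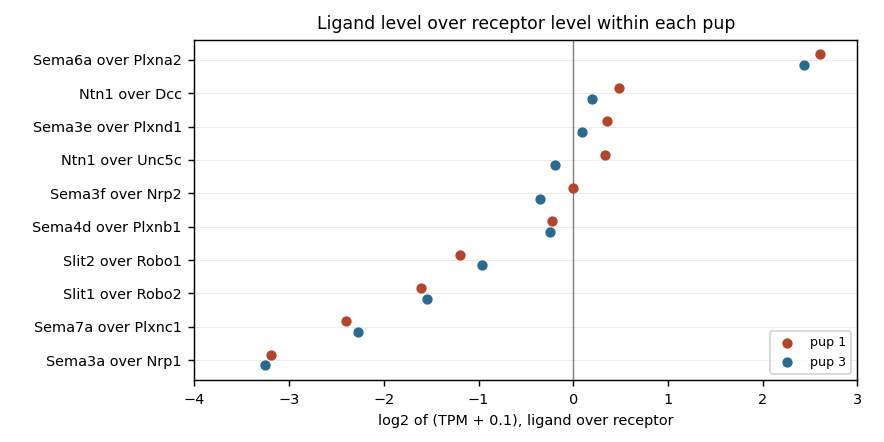
Log2 ratio of ligand TPM over receptor TPM (all transcripts, 0.1 added to each) for 10 partner pairs, 1 point for pup 1 and 1 for pup 3; 0 is an equal level. Sema6a over Plxna2 lies at 2.61 in pup 1 and 2.43 in pup 3, and Sema3a over Nrp1 at -3.19 in pup 1 and -3.26 in pup 3.

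Across the 47 genes there were 34 coding exons or splice sites with both forms annotated and at least 1 TPM over both forms, in 16 genes. Inclusion was between 5% and 95% on the mean of the pups for 18 of them, in 9 genes, namely Nrp2, Ntng1, Robo2, Sema3f, Sema6a, Sema6d, Slit2, Unc5a and Unc5c. Of these 18, 17 were a whole number of codons long. The pups lay within 10 percentage points of each other for 15 of 18. The exceptions were exons of 135 and 60 bases in Ntng1 and the 57-base exon of Unc5c. Inclusion of the Unc5c exon was 42.1% in pup 1 and 7.74% in pup 3 over coding transcripts, but 42.1% in pup 1 and 39.1% in pup 3 when transcripts of any type were counted, because a transcript annotated for nonsense-mediated decay held 0% of Unc5c TPM in pup 1 and 16.4% in pup 3. For 13 of the 18, every transcript was as long in the deposited tables as in the later annotation that gave the exons. The other 5 were those of Robo2, Slit2 and Unc5c.

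**Figure D3:**
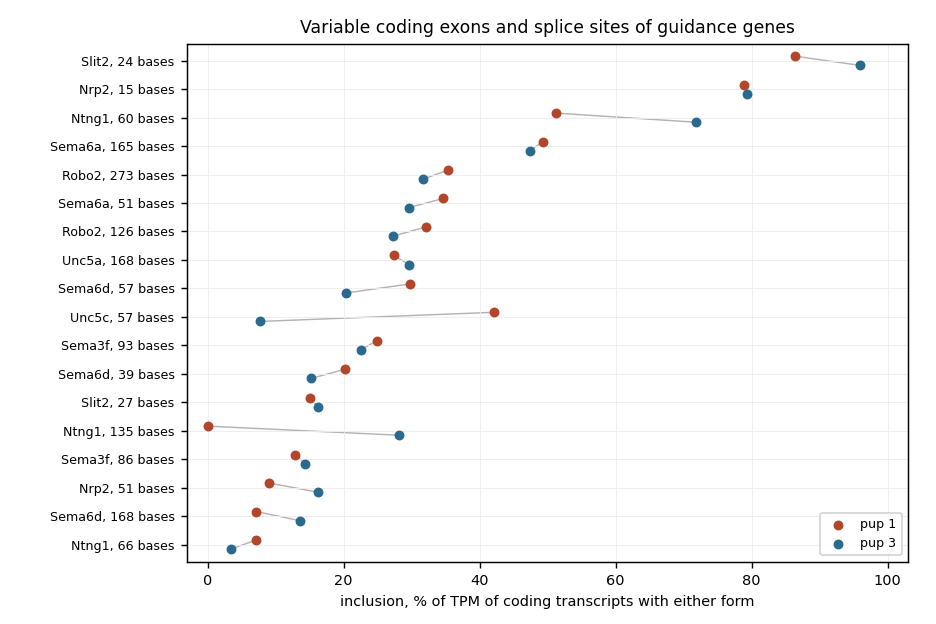
Inclusion of 18 coding exons and splice sites, as the percent of TPM of coding transcripts with either form, with 1 point for pup 1 and 1 for pup 3 joined by a line. The Nrp2 insert of 15 bases, compared among Nrp2b forms only, lies near 79% in both pups. The Unc5a exon of 168 bases lies near 28% in both pups, while the Unc5c exon of 57 bases lies at 42.1% in pup 1 and 7.74% in pup 3.

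A part of the TPM of several genes sat on transcripts not annotated as coding. Transcripts annotated as coding include short ones, such as a 327-nt Ntng1 transcript for 108 amino acids. Among the 42 genes at 1 TPM or more, 12 (28.6%) had under 75% of TPM in coding transcripts in both pups, where 17.2% of protein-coding genes at that level did. The limit of 75% was chosen after the values were seen. The 12 were Sema3b, Sema3c, Sema3f, Sema4a, Sema6a, Sema6c, Plxna3, Plxnb2, Slit2, Slit3, Ntng2 and Unc5c. Their coding share was higher on counts than on TPM in all but Ntng2, since short transcripts take a high TPM from few reads. For Slit2 the coding share was 48.1% of TPM in pup 1 and 46.4% in pup 3, against 68.8% of counts in pup 1 and 66.0% in pup 3. The same leading transcript was found in both pups for 32 of the 34 genes (94.1%) with several transcripts at 1 TPM or more, against 91.0% of all such protein-coding genes. The exceptions were Sema3b and Plxnb2.

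**Figure D4:**
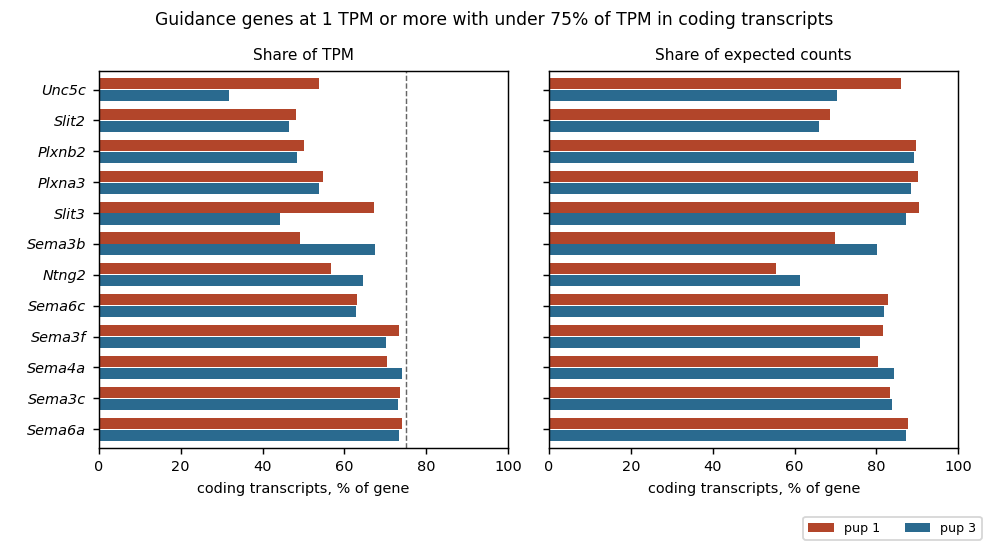
Share of each gene's TPM (left) and expected counts (right) assigned to transcripts annotated as coding, in percent, for the 12 genes at 1 TPM or more with under 75% of TPM (dashed line) in both pups; the upper bar of each pair is pup 1 and the lower bar pup 3. For Plxnb2 the share is 50.1% of TPM in pup 1 and 48.3% in pup 3, against 89.6% of counts in pup 1 and 89.1% in pup 3.

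Between the pups, none of the 43 guidance genes with a mean count of at least 100 was past a 2-fold difference on log2 of TPM after adding 0.1, where 0.315% of all genes at that count were. In direction, 35 of the 43 (81.4%) were lower in pup 1 than in pup 3, where 54.8% of all genes at that count were. Their median log2 ratio was -0.14, pup 1 over pup 3, against -0.02 over all 13318 genes. From the counts at equal library totals, the 95% exact binomial interval lay wholly below 0 for 21 of the 43 (48.8%) and wholly above 0 for none, where it did so for 22.5% and 20.8% of all 13318 genes. These intervals cover counting error only, and each pup is a single library.

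Several measured features moved with this difference. The guidance genes are long, with a median span of 115 kb on the genome, from 9.71 kb for Sema4c to 1097 kb for Dcc, against 25.01 kb for protein-coding genes at 1 TPM or more. Of all 1743 genes of at least that count with a span of at least the members' median, 73.9% were lower in pup 1, with a median log2 ratio of -0.11, against 51.8% of the 11511 shorter genes. Of the 24 guidance genes of that span 22 were lower in pup 1, and of the 19 shorter ones 13 were. Of the 10 forebrain and hypothalamus markers 9 were also lower in pup 1. The largest difference among them was in Oxt, an oxytocin gene of the hypothalamus, at 4.28 TPM in pup 1 and 20.4 TPM in pup 3. Lhx2 was higher in pup 1, at 20.3 TPM against 18.8 TPM in pup 3. Ttr, a choroid plexus gene, was at 0.85 TPM in pup 1 and 5.16 TPM in pup 3, on 22 and 146 counts. The other 2 choroid plexus markers went the other way. Kl was at 0.41 TPM in pup 1 and 0.33 TPM in pup 3, and Folr1 at 3.63 TPM in pup 1 and 3.28 TPM in pup 3. All 8 oligodendrocyte-lineage markers were higher in pup 1, with a median log2 ratio of 0.24 and summed TPM at 222 in pup 1 against 202 in pup 3. The part of gene span or of these markers in the difference was not tested.

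The 4 genes outside the central 95% of all genes were Slit3 (-0.65), Ntng1 (-0.55), Unc5c (-0.52) and Sema3b (0.34), on the log2 scale, pup 1 over pup 3. In each, short or noncoding transcripts carried much of the gap. Over coding transcripts alone, Slit3 was at 1.27 TPM in pup 1 and 1.34 TPM in pup 3. Unc5c was at 3.49 TPM in pup 1 and 2.97 TPM in pup 3 in that reading, and Sema3b was at 2.12 TPM in pup 1 and 2.29 TPM in pup 3, so both changed direction. For Ntng1 a 327-nt transcript annotated as coding held 2.90 TPM in pup 1 and 11.5 TPM in pup 3, on 15.3 and 66.4 counts. Without it Ntng1 was at 27.3 TPM in pup 1 and 32.8 TPM in pup 3, with a log2 ratio of -0.26. Slit2 kept its lower level in pup 1 on coding transcripts, with 3.97 TPM in pup 1 and 5.13 TPM in pup 3.

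**Figure D5:**
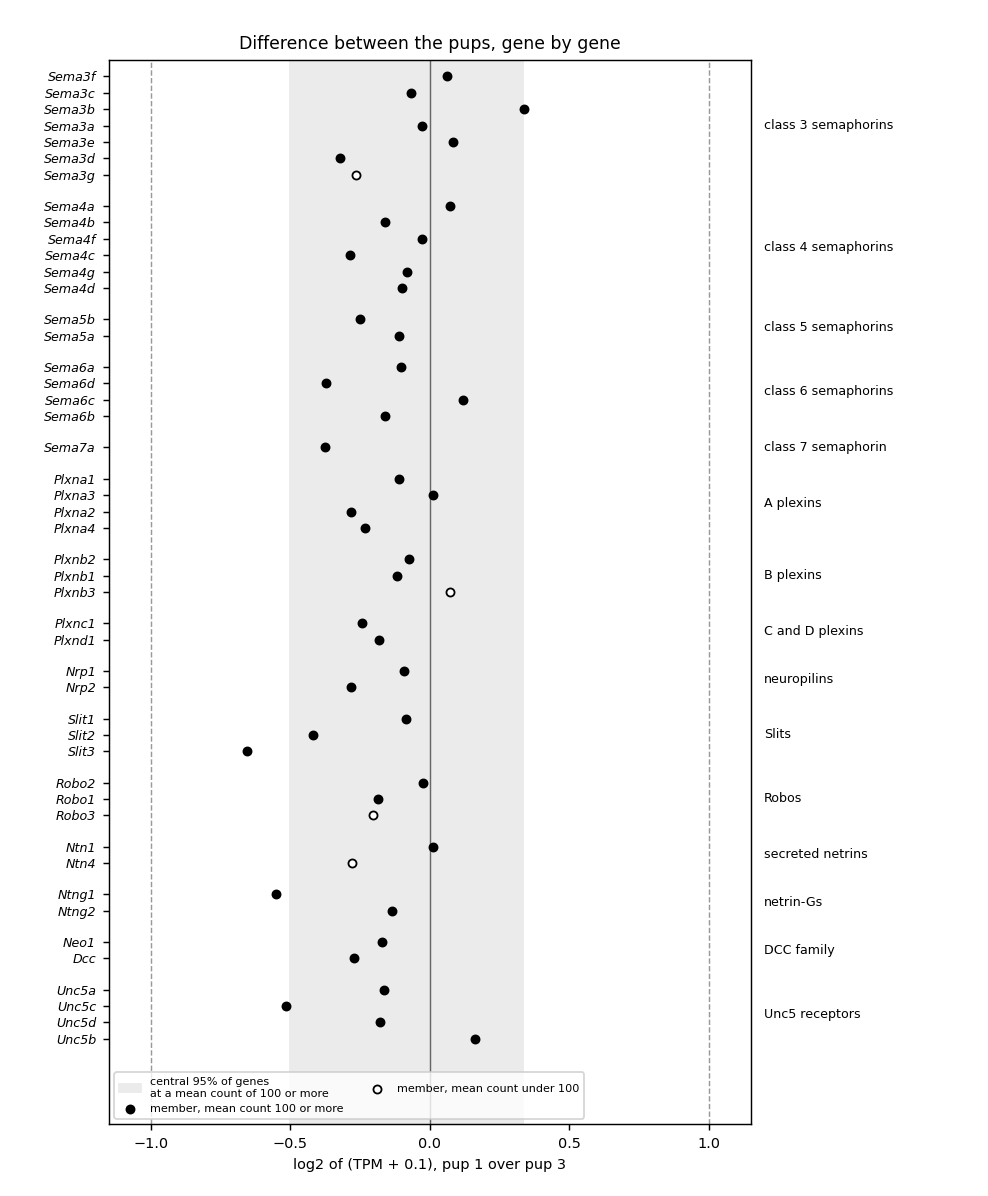
Log2 of TPM (0.1 added) in pup 1 over pup 3 for each of the 47 genes; the grey band holds the central 95% of all genes with a mean count of at least 100, dashed lines mark 2-fold, and open points are genes under that count. All points lie between the dashed lines, most lie left of 0, and Slit3, Ntng1 and Unc5c lie left of the band.

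Partners and effectors of these receptors were read from a list of 66 genes, of which 64 were matched. Of these, 63 reached 1 TPM in both pups, as did 62.1% of all protein-coding genes. None was past 2-fold between the pups, with no filter on counts. Past 2-fold were 3.39% of all 69691 rows without such a filter, and 0.315% of genes with a mean count of at least 100. Among the 20 co-receptors and other ligands Nell2, a secreted ligand of Robo3, was highest at 151 TPM in pup 1 and 154 TPM in pup 3. Chl1, an adhesion molecule that associates with neuropilin-1, was at 114 TPM in pup 1 and 116 TPM in pup 3. L1cam, its relative, was at 97.2 TPM in pup 1 and 99.6 TPM in pup 3. All 3 were above every one of the 47 ligands and receptors. The lowest was Ntn5, a secreted netrin, at 0.31 TPM in pup 1 and 0.61 TPM in pup 3. All 44 effectors reached 1 TPM in both pups. Dpysl2 (CRMP2), a microtubule-binding mediator of the Sema3a response, was at 1188 TPM in pup 1 and 1241 TPM in pup 3. Dpysl3, its relative, was at 1068 TPM in pup 1 and 1026 TPM in pup 3, and the GTPase Cdc42 at 1013 TPM in pup 1 and 1007 TPM in pup 3. The lowest effector was the kinase Fes, at 1.72 TPM in pup 1 and 1.65 TPM in pup 3.

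Some of the genes are neighbours on the genome (mm10). Sema3b and Sema3f lie 72.3 kb apart on chromosome 9, and their levels were apart, with Sema3f higher. Sema3d, Sema3a, Sema3e and Sema3c lie on chromosome 5, with 536 kb between Sema3d and Sema3a and 423 kb between Sema3a and Sema3e. Robo1 and Robo2 lie 846 kb apart on chromosome 16, and Plxna3 and Plxnb3 557 kb apart on the X chromosome, with Plxna3 well above Plxnb3 in both pups. Exons of 9 of the 47 genes overlap those of another gene in the tables, 6 of them on the opposite strand. No strand setting of the counting is known, so reads in those 6 overlaps cannot be told apart by strand here. Counts were not whole for 4 of the 47 genes, Ntng2, Sema4c, Plxna1 and Plxnb1. Sema4c, Plxna1 and Plxnb1 overlap a gene only on the opposite strand, and these partners averaged 22.16, 30.965 and 8.575 counts. The partners of Sema4a, Plxna4 and Nrp1 had 0 counts. Whether reads were divided across strands was not tested.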

How the data were processed

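Total RNA above 200 nt, 10 ng per library, was sequenced per the labels from 2 P0 midbrains; the labels' protocols name mirVana extraction and link a SMARTer Ultra Low kit manual. Per the deposited text record, values were derived from transcriptome alignments to mm10 with GENCODE M4. For the program, its version and the strand setting, the sources used here give nothing. The authors deposited expected counts (estimated reads per gene or transcript) and TPM, which divide by effective length and are scaled over all features with the spike-ins. They also deposited the percent of a gene's TPM on each transcript. The deposited interval bounds of the posterior mean TPM were treated as a score, since their level is not stated.

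Symbols, transcript types and exons came from GENCODE M21, of the same build, matched on identifiers without version. Each of the 47 symbols matched 1 identifier. Of 277 member transcripts 235 had the same length in the tables as in M21, and 2 are not in M21. Ratios used TPM plus 0.1. The pup difference used genes averaging at least 100 expected counts, and a log2 size over 1 was called past 2-fold. Expected counts were rounded for edgeR 4.0.16 and DESeq2 1.42.0, which gave scaling factors only (R 4.3.3). Other steps used Python 3.11.15, numpy 2.4.6, pandas 2.3.3, SciPy 1.17.1 and matplotlib 3.10.9. The ratio and the 2-fold limit of the pup difference were also checked on counts simulated at the means of the real genes.

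All 47 genes are named, and of the partner list the 3 highest and the lowest among co-receptors and other ligands, and among effectors, by mean TPM. The members and lists were chosen with earlier results of these data known. The labels give separate pups, so the SD covers 2 animals and 1 library each.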

Additional observations from a re-analysis of the deposited data

How the results depend on the processing

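The number of guidance genes at 1 TPM or more in both pups was 42, and ranged from 38 at a limit of 2 TPM to 44 at 0.5 TPM, with 43 on posterior mean TPM and 42 on coding transcripts alone. Leaving out either pup gave 42 to 43. The number of pairs apart, 45, ranged from 31, when genes under a mean of 1 TPM were left out and fewer pairs remained, to 46 on posterior mean TPM. A pseudocount of 1 gave 41, and leaving out either pup gave 45 to 46. Coding transcripts alone, without the criterion on credibility intervals, gave 43: 6 calls were lost (Sema3b over Sema3d, Sema4a over Sema4f and over Sema4c, Sema5b over Sema5a, Plxna3 over Plxna2 and over Plxna4) and 4 were gained (Plxna1 over Plxna3, Slit1 over Slit2, Unc5a over Unc5c, Unc5d over Unc5c). No guidance gene was past 2-fold between the pups under any of the 9 alternatives run, which were other pseudocounts, count filters, TMM and DESeq2 scaling, posterior mean TPM and coding transcripts. On counts scaled by TMM factors, 32 of 43 genes were lower in pup 1. Their median log2 ratio was -0.09, against 0.0098 over all 13318 genes with a mean count of at least 100. The share of all genes lower in pup 1 was not computed on this scale. Posterior mean TPM moved 15 of 47 mean levels by more than the SD between pups, at most 1.31-fold, and 27 of 37 leading transcript shares. The mean share of the leading transcript of Sema6c was 49.4% against 60.1% as reported. For Nrp2 the 909 amino acid form, which leads as reported, was at 32.0% against 42.0%. On posterior mean TPM the 906 amino acid form led Nrp2, at 35.0% against 30.3% in pup 1 and 36.6% against 33.6% in pup 3. TPM over protein-coding genes alone moved 33 of 47 levels. The readings on coding transcripts were chosen after seeing the data. No paired analysis was possible because there is 1 group.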
